A study of Homo sapiens with 8 samples.

Results

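DMSO, the vehicle in which busulfan was dissolved, was given alone to MOLM-13 cells in repeated treatment courses, and the cultures after course 3 and course 5 were set here against the culture after course 1. MOLM-13 is a human acute myeloid leukemia line. The comparison uses 3 of the 8 libraries that the labels describe, with 1 library for each course and no replicate. Of the genes measured, 10653 had a mean of at least 5 CPM over the 3 libraries, where CPM is a read count scaled to a common library size. A gene was taken as apart when both late libraries differed from course 1 by at least 2-fold in the same direction and both 95% counting intervals excluded a ratio of 1. By this rule 411 genes were higher (3.86% of the genes tested) and 451 genes were lower (4.23%), which makes 862 genes in either direction (8.09%).

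The study carried MOLM-13 cells through courses of busulfan, an alkylating agent, to obtain resistant cells, and prepared control cells in parallel with 1% DMSO. All 3 libraries compared here are from such control cells, so every group carries DMSO at the same concentration and differs in the number of courses, which was 1, 3 or 5. The labels give no genotype change, no drug and no passage number for these cultures. The number of courses and the time in culture therefore cannot be told apart. The question these libraries address is how far expression in the drug-free arm differed between its first and its later courses.

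Gene counts totalled 44795976 in course 1, 50855326 in course 3 and 45095954 in course 5. Reads aligned to several places, which no gene receives, took 14.2% to 15.4% of all reads in courses 1 and 3 and 21.3% in course 5. Mitochondrial genes took 14.4%, 15.1% and 9.22% of the gene counts in courses 1, 3 and 5. All 14 markers written down for the line were at 5 CPM or more, among them FLT3 (510, 607 and 536 CPM in courses 1, 3 and 5), CD33 (229, 202 and 188 CPM) and HOXA9 (85.3, 86.1 and 84.2 CPM). The integrin gene ITGAX and the receptor gene CSF1R were apart lower among them.

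Cells that run short of amino acids, or that carry unfolded protein or oxidative stress, phosphorylate the initiation factor eIF2, which slows general translation and favours translation of the transcription factor ATF4. ATF4 then raises genes for amino acid uptake, serine and glycine synthesis and tRNA charging. Low oxygen stabilises HIF proteins, which raise glycolytic enzymes and regulators of mitochondrial turnover. Sterol shortage releases SREBP2, which raises the enzymes of cholesterol synthesis. All of these programs are found in cultured leukemia lines.

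Levels below are CPM after scaling of the libraries for composition (TMM), and intervals cover counting error only. In bulk RNA fewer cells of a kind and less RNA per cell cannot be told apart. The gene with the largest distance in the upward direction was SLC6A9 (ENSG00000196517), which encodes a glycine transporter. It had 1 count in course 1, 314 in course 3 and 461 in course 5. INHBE, an inhibin subunit gene, had 2, 459 and 419 counts. CHAC1 (ENSG00000128965), which encodes an enzyme that breaks down glutathione, had 13, 2504 and 2352 counts. The course 1 library was the low one for each of them. Relative to course 1, CHAC1 had a log2 ratio of 7.37 in course 3 with a counting interval from 6.60 to 8.28, and one of 7.44 in course 5 with an interval from 6.66 to 8.35. For SLC6A9 the 2 ratios were 8.08 (5.59 to 13.39) and 8.79 (6.30 to 14.09), with intervals this wide because course 1 held 1 count.

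ULBP1, a surface ligand of the natural killer cell receptor NKG2D, stood at 0.842 CPM in course 1, 16.9 CPM in course 3 and 28.5 CPM in course 5. The adrenomedullin-family peptide gene ADM2 stood at 3.12, 45.9 and 49.0 CPM. The secreted glycoprotein gene STC2 stood at 5.37, 69.0 and 97.3 CPM. VCAN, which encodes the matrix proteoglycan versican, stood at 4.53, 42.6 and 52.0 CPM. In each of these both late libraries lay far above course 1, with course 5 the higher. FLRT1, a leucine-rich transmembrane protein gene, stood at 0.865, 12.8 and 22.9 CPM, and the AP-1 family gene BATF3 stood at 0.979, 10.99 and 16.5 CPM. PSAT1, G0S2 and FAM84B completed the 12 genes of this direction, and the smallest of all their ratios was that of VCAN in course 3, at 3.23 on the log2 scale.

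In the downward direction ADM, which encodes the vasodilator peptide adrenomedullin, stood at 21.5 CPM in course 1, 1.14 CPM in course 3 and 0.502 CPM in course 5. DACT3, an antagonist of Wnt signalling, stood at 57.2, 4.39 and 2.10 CPM. LSP1, an actin-binding protein of leukocytes, stood at 84.0, 8.19 and 2.12 CPM. Course 1 was the high library in all 3 genes and course 5 the low one. JPH2, a junctophilin gene, stood at 48.4, 4.68 and 1.14 CPM, and TDRD9, a helicase gene of the piRNA pathway, stood at 17.9, 2.70 and 1.35 CPM. The lysosomal sulfatase gene SGSH stood at 15.8, 2.20 and 0.786 CPM, and the ephrin receptor gene EPHB3 at 15.5, 2.17 and 1.31 CPM. SH3D21, PNCK, TBC1D30, PFKFB4 and ALDOC completed the 12. The log2 ratios of DACT3 were -3.70 (-3.91 to -3.51) in course 3 and -4.77 (-5.08 to -4.48) in course 5.

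**Figure D1:**
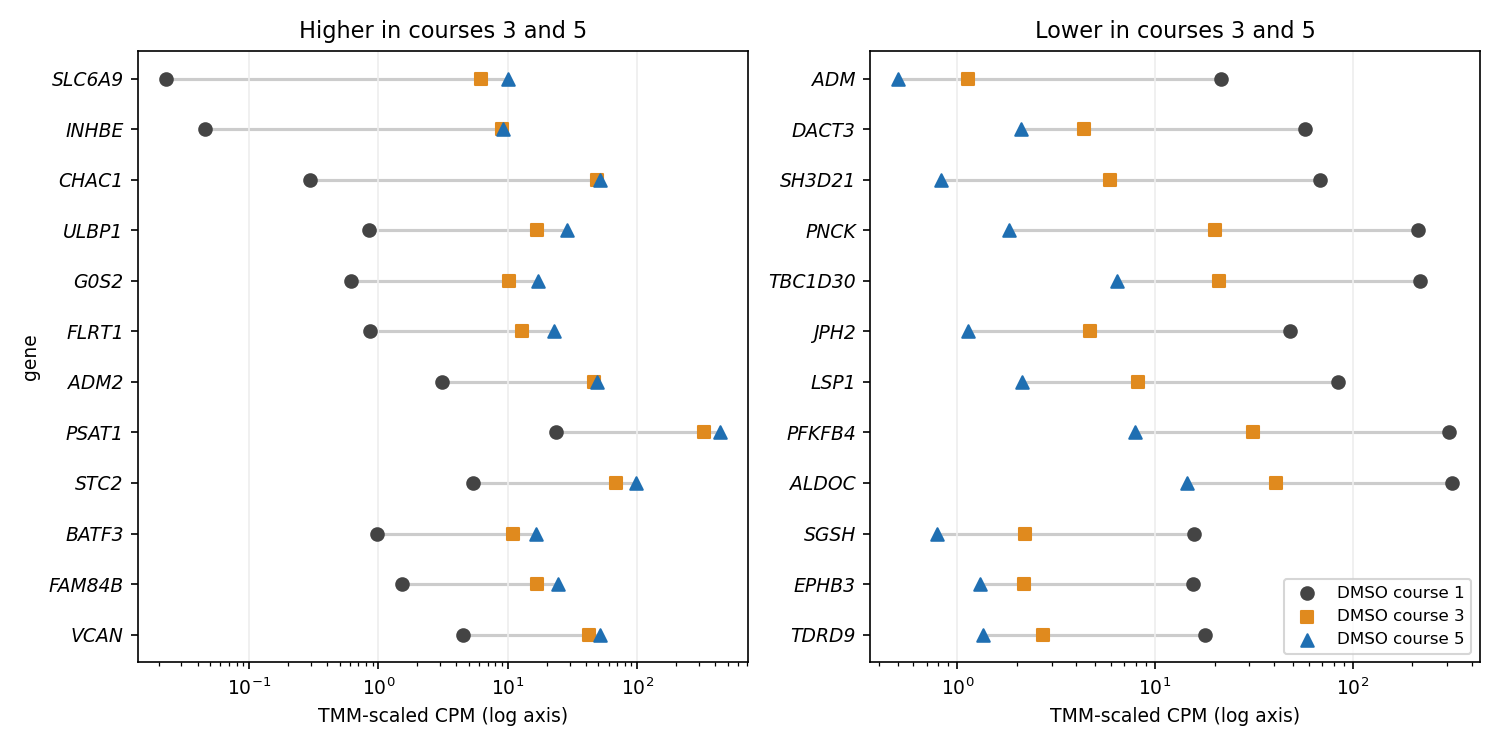
TMM-scaled CPM (log axis) of the 12 genes farthest from course 1 in each direction, with 1 point for each library of DMSO course 1, 3 and 5 and a grey line over their range. Course 1 is the lowest point of every gene on the left and the highest of every gene on the right, as the rule for choosing them requires, and in PNCK course 3 at 20.1 CPM lies far from course 5 at 1.83 CPM.

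Among the 862 genes, 817 were farther from course 1 in course 5 than in course 3, which was so for 392 of the 411 higher and 425 of the 451 lower genes. The same share over all genes is not given here. The ratios of course 5 were wider over all genes, which favours this outcome. Over all genes of 5 CPM or more the SD of the log2 ratio was 0.62 in course 3 and 0.82 in course 5, and the medians were 0.03 and 0.07. Taken alone, course 3 lay 2-fold or more above course 1 in 432 genes (4.06%) and below it in 480 (4.51%), and course 5 lay above it in 803 (7.54%) and below it in 899 (8.44%). Both sets of ratios share the course 1 library. At a limit of 4-fold in both late libraries, 49 genes were higher and 64 were lower. CREBRF, at 79.2, 39.6 and 34.0 CPM in courses 1, 3 and 5, was the gene just inside the 2-fold limit, and TAF9B, at 2.69, 5.37 and 8.12 CPM, was the one just outside it. RN7SL2, a signal recognition particle RNA with many near-identical copies, was the 1 gene apart in opposite directions, at 5.17, 1.53 and 21.0 CPM. It lies outside the rule for named genes and was picked out after its values were seen.

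Genes of the ATF4 response were higher in the late courses. Of 20 stress regulators on the list, 18 were at 5 CPM or more, 10 of them were apart higher and 0 were apart lower, beside 3.86% and 4.23% of all genes. The median log2 ratio was 1.22 in course 3 and 1.64 in course 5. SESN2, a sestrin that restrains mTORC1, stood at 9.99, 63.2 and 71.3 CPM in courses 1, 3 and 5. TRIB3, a pseudokinase gene, stood at 28.2, 147 and 292 CPM, and the transcription factor gene ATF5 at 27.4, 87.4 and 216 CPM. CEBPG, a partner of ATF4, stood at 117, 253 and 320 CPM. The level of ATF4 mRNA itself was 396, 522 and 576 CPM and was not apart. DDIT3, which encodes CHOP, stood at 33.0, 31.0 and 35.0 CPM, and both of its counting intervals included a ratio of 1. PPP1R15A, whose product dephosphorylates eIF2, stood at 238, 136 and 166 CPM and was the member that edgeR's test, given further on, called lower.

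Enzymes that make serine and glycine and pass on their one-carbon units followed. Of 16 measured members 10 were apart higher and 0 lower, with medians of 1.25 and 1.77. PHGDH, the first enzyme of serine synthesis, stood at 38.0 CPM in course 1, 286 CPM in course 3 and 382 CPM in course 5, with log2 ratios of 2.91 (2.84 to 2.99) and 3.33 (3.26 to 3.40). PSPH, the last enzyme of that path, stood at 12.6, 48.2 and 56.8 CPM. The 4 mitochondrial folate enzymes on the list were apart higher: SHMT2 stood at 145, 306 and 383 CPM, MTHFD2 at 164, 442 and 616 CPM, MTHFD1L at 21.4, 104 and 179 CPM and ALDH1L2 at 25.7, 191 and 266 CPM. Their cytosolic counterparts were not, as SHMT1 stood at 19.8, 19.3 and 15.4 CPM and MTHFD1 at 86.3, 125 and 151 CPM. CBS and CTH, which turn homocysteine into cysteine, stood at 2.05, 10.1 and 11.5 CPM and at 5.15, 28.0 and 38.2 CPM. TYMS, the thymidylate synthase gene, had log2 ratios of 0.07 and 0.19.

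Of 22 measured genes of amino acid transport and synthesis, 13 were apart higher and 0 lower, with medians of 1.48 and 1.72. The large neutral amino acid transporter gene SLC7A5 stood at 105, 549 and 751 CPM, and its partner chain SLC3A2 at 110, 309 and 356 CPM. The glutamine transporter gene SLC1A5 stood at 240, 801 and 902 CPM, and the cystine transporter gene SLC7A11 at 13.3, 62.0 and 66.0 CPM. The transporters SLC7A1, SLC1A4 and SLC38A1 were apart higher as well. Among enzymes, ASNS, which makes asparagine, stood at 2.96, 22.6 and 25.1 CPM, and ASS1, which makes argininosuccinate, at 141, 522 and 844 CPM. GPT2, GOT1 and PYCR1 were also apart higher. SLC36A1 and SLC36A4, the lysosomal transporters, had log2 ratios between -0.12 and 0.08.

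Of 18 measured cytosolic aminoacyl-tRNA synthetases, which load amino acids onto tRNA, 11 were apart higher and 0 lower, with medians of 1.16 and 1.61. WARS, for tryptophan, stood at 32.0, 213 and 351 CPM. AARS, for alanine, stood at 88.4, 437 and 635 CPM, and GARS, for glycine, at 53.3, 264 and 340 CPM. The others apart were EPRS, IARS, LARS, MARS, NARS, SARS, TARS and YARS. The remaining 7 measured members did not reach 2-fold in both courses: FARSA, HARS, QARS and RARS had log2 ratios between -0.18 and 0.23, KARS and FARSB had 0.34 and 0.75 in course 3, and DARS had -0.51 and -0.37. VARS and CARS were listed at 0 or close to it in all 3 libraries. RPS9, a ribosomal protein gene that every cell uses, was at 0 as well, so a 0 in these counts does not show that a gene was silent.

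Chaperones and degradation factors of the endoplasmic reticulum, which respond to unfolded protein, differed less. Of 20 measured members 1 was apart higher and 0 lower, with medians of 0.30 and 0.46. That member was HYOU1, at 37.0, 103 and 153 CPM. HSPA5, which encodes the chaperone BiP, stood at 139, 173 and 198 CPM, CALR at 548, 414 and 412 CPM, and XBP1 at 133, 264 and 244 CPM.

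**Figure D2:**
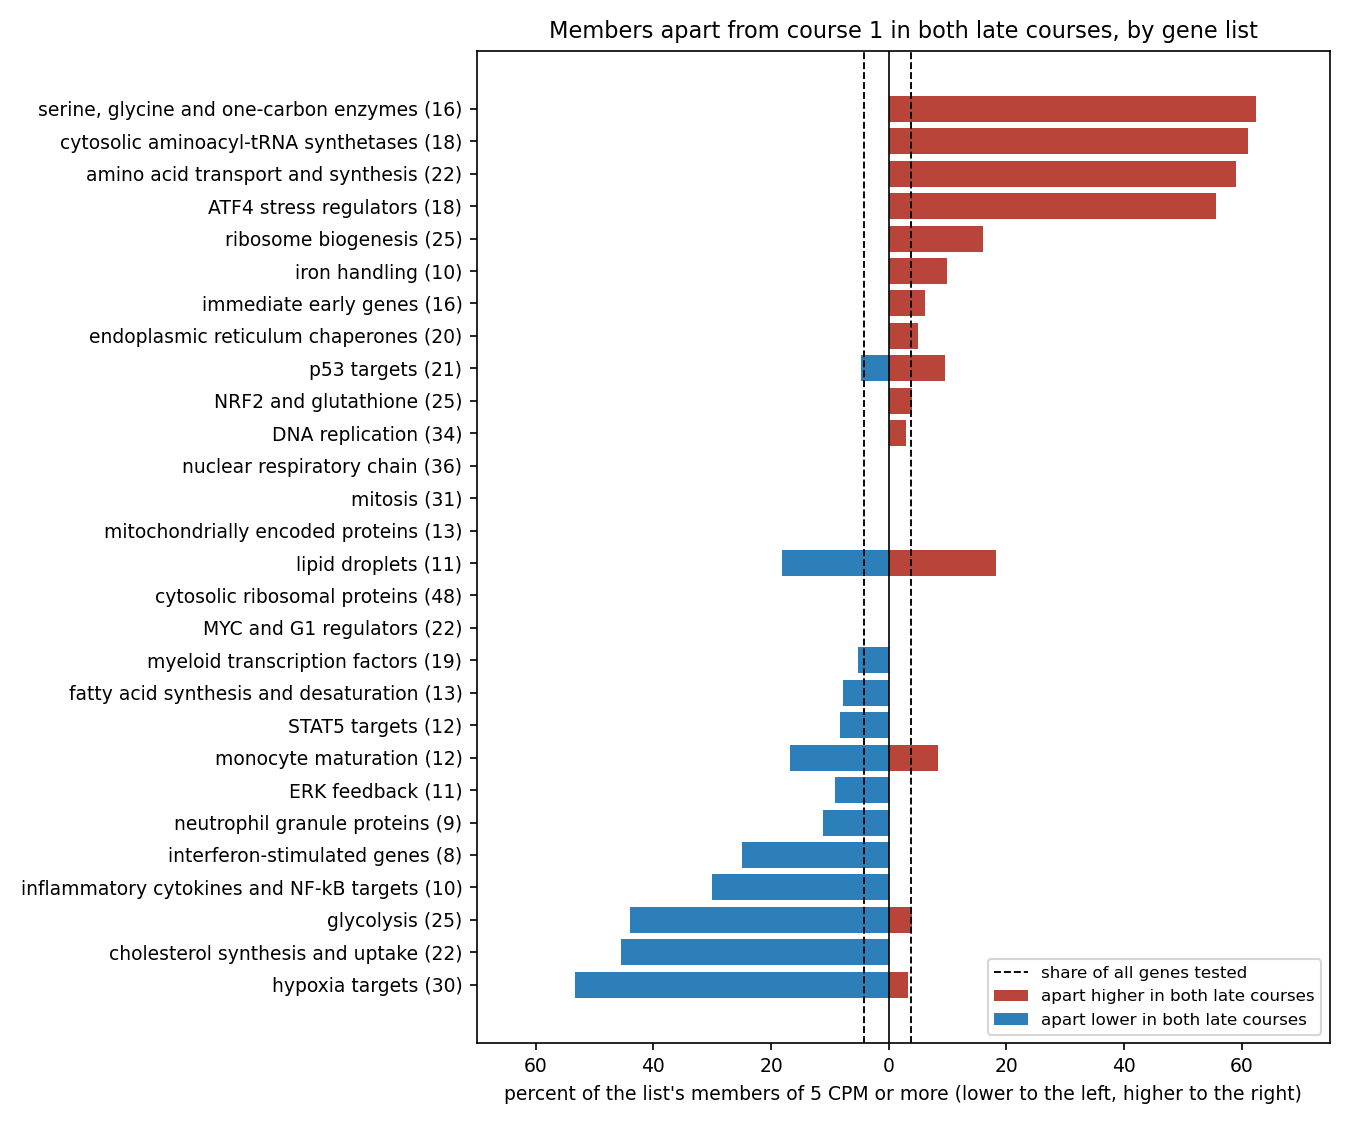
Share of each list's members at 5 CPM or more that were apart higher (right, red) or apart lower (left, blue) in both late courses, with the number of members in brackets and dashed lines at the share over all genes tested, 3.86% higher and 4.23% lower. The 4 lists at the top have 55.6% or more higher and 0 lower, and the hypoxia list at the bottom has 53.3% lower.

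The promoters of these genes are shown because a composite element recognised by ATF4 with a C/EBP partner was looked for in them. A promoter here is the stretch from 250 bases before to 50 after the start in the RefSeq table for GRCh38.p14, and 8266 of the 10653 genes had one. The search was for TGATGNAA on either strand, which holds the core of the element and does not overlap the other motifs searched. It was present in 1.52% of promoters of genes at 5 CPM or more and in 3.67% of the 27195 promoters in the table. Among genes apart higher 20 of 317 held it (6.31%), and among genes apart lower 10 of 326 did (3.07%). It was present in 4 of 13 synthetases, in 6 of 19 amino acid transport and synthesis genes, in 1 of 10 serine and one-carbon genes and in 2 of 15 stress regulators. Of the members apart, 4 of 8, 5 of 10, 1 of 6 and 2 of 8 held it, in the same order. In the stretches below, 5 genes of these lists are given 5′ to 3′ on the strand of the gene, upstream of the start, with the matching bases in capitals. CHAC1 lies at chr15:40953222-40953309 (plus strand), ASNS at chr7:97872429-97872516 (minus), AARS at chr16:70289646-70289733 (minus), MTHFD1L at chr6:150866317-150866404 (plus) and ATF3 at chr1:212565176-212565263 (plus).
CHAC1: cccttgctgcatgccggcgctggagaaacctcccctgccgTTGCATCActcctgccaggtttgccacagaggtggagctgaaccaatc
ASNS: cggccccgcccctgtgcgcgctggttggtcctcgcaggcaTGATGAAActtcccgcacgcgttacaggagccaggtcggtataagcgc
AARS: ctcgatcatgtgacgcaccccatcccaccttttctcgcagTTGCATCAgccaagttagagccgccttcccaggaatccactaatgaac
MTHFD1L: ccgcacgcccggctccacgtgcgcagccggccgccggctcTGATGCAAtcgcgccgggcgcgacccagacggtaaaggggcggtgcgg
ATF3: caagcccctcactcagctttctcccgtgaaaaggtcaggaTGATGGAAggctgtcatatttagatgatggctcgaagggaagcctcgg
In CHAC1 and AARS the match reads on the opposite strand, as TTGCATCA. A match describes the letters and does not show that a factor was bound.

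Glycolytic genes were lower in the late courses. Of 25 measured members 11 were apart lower and 1 was apart higher, with medians of -1.06 in course 3 and -0.92 in course 5. SLC2A3, a glucose transporter gene whose close relative SLC2A14 can share reads with it, stood at 395, 69.5 and 55.8 CPM in courses 1, 3 and 5. PFKFB4, which makes the activator of phosphofructokinase, stood at 307, 31.3 and 7.88 CPM, with log2 ratios of -3.29 (-3.37 to -3.22) and -5.28 (-5.44 to -5.13). The aldolase gene ALDOC stood at 318, 41.1 and 14.5 CPM, and ALDOA at 535, 190 and 157 CPM. The distance in ALDOC and PFKFB4 was larger in course 5 than in course 3. GPI stood at 1387, 532 and 363 CPM, PGK1 at 800, 346 and 274 CPM, PKM at 977, 444 and 355 CPM and LDHA at 840, 402 and 318 CPM. ENO1 stood at 3108, 1494 and 1388 CPM.

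Several steps of the same path did not meet the rule. GAPDH stood at 4045, 2292 and 2492 CPM, with log2 ratios of -0.82 and -0.70. TPI1, PGAM1, PFKL and PFKP had log2 ratios between -0.92 and -0.48. The hexokinase gene HK2 stood at 226, 105 and 131 CPM, and its relative HK1 was on the other side, at 29.3, 40.1 and 47.8 CPM. LDHB, the heart-type lactate dehydrogenase subunit, stood at 131, 178 and 229 CPM. SLC16A1, a carrier of lactate and pyruvate, was the member apart higher, at 41.7, 98.6 and 125 CPM, while the lactate exporter gene SLC16A3 was apart lower, at 397, 177 and 168 CPM.

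Of 30 measured hypoxia targets outside the enzymes above, with HK2 on both lists, 16 were apart lower and 1 was apart higher, with medians of -1.11 and -1.34. NDRG1, a stress-induced gene often used as a hypoxia marker, stood at 3442, 845 and 524 CPM. BNIP3 and BNIP3L, receptors that send mitochondria to autophagy, stood at 261, 42.5 and 23.5 CPM and at 220, 60.5 and 44.7 CPM. The collagen prolyl hydroxylase gene P4HA1 stood at 448, 141 and 62.0 CPM and the histone demethylase gene KDM3A at 288, 68.9 and 60.9 CPM. TMEM45A, a transmembrane protein gene, stood at 50.1, 11.2 and 3.34 CPM, and the glycogen branching enzyme gene GBE1 at 505, 165 and 89.0 CPM. In all of these, course 1 was the high library and course 5 the low one. Below the 5 CPM limit, CA9, the carbonic anhydrase gene used as a marker of low oxygen, stood at 8.06, 0.745 and 0.131 CPM and EGLN3 at 5.44, 0.549 and 0.0655 CPM. VEGFA was at 406, 398 and 463 CPM and DDIT4 at 169, 148 and 192 CPM, both within 2-fold of course 1. NDUFA4L2 was the member apart higher, at 2.46, 15.6 and 19.8 CPM.

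**Figure D3:**
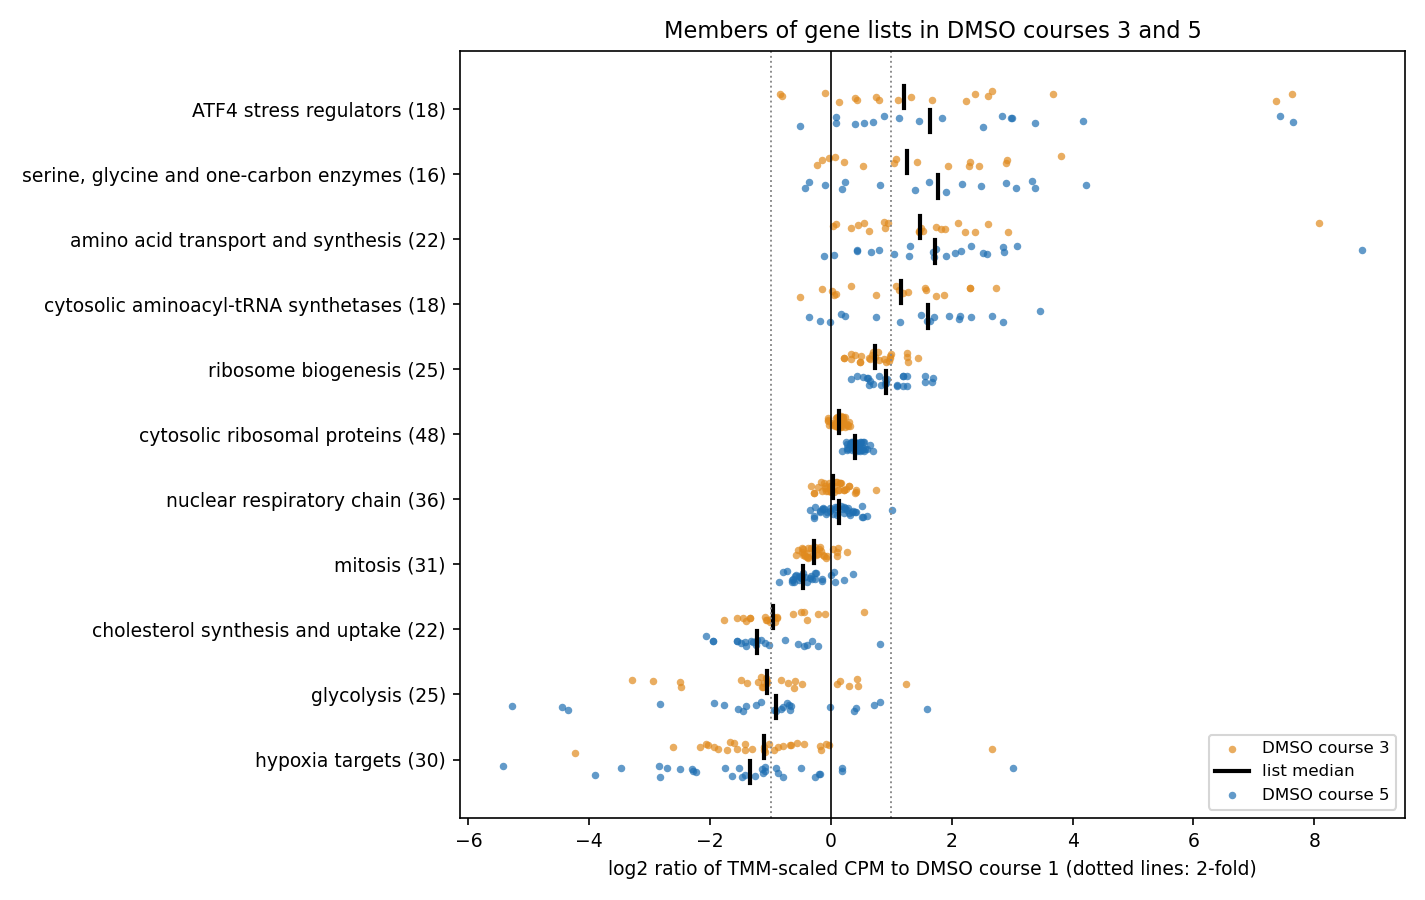
Log2 ratio to DMSO course 1 of every member at 5 CPM or more of 11 gene lists, with 1 point for each gene in course 3 (orange) and in course 5 (blue), black bars at the list medians and dotted lines at 2-fold. The medians run from 1.77 for serine, glycine and one-carbon enzymes in course 5 to -1.34 for hypoxia targets in course 5, and SLC16A1 and NDUFA4L2 are the members of the glycolysis and hypoxia lists to the right of the 2-fold line.

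The core of the hypoxia response element, ACGTG, was looked for on both strands of the same promoters. It overlaps the E-box CACGTG, which other factors bind. It was present in 27.9% of promoters of genes at 5 CPM or more and in 100 of 317 of those apart higher (31.5%). The core was present in 75 of 326 promoters of genes apart lower, a smaller share than either of these. The genes apart lower as a whole were therefore not enriched for it. Among glycolytic genes it was present in 6 of 10 apart and in 8 of all 22 with a promoter, and among hypoxia targets in 8 of 13 apart and in 19 of all 25. As examples, and not as the genes with the largest differences, stretches of 5 such promoters are given to show the core, read as before. They lie at chr10:131982012-131982096 (BNIP3, minus strand), chr10:73096908-73096992 (P4HA1, minus), chr17:28576896-28576963 (ALDOC, minus), chr12:6914422-6914506 (ENO2, plus) and chrX:78104025-78104109 (PGK1, plus).
BNIP3: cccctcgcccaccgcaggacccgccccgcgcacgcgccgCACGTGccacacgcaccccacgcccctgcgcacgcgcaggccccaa
P4HA1: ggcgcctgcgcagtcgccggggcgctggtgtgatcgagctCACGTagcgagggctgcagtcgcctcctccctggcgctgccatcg
ALDOC: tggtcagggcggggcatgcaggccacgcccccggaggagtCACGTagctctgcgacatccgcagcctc
ENO2: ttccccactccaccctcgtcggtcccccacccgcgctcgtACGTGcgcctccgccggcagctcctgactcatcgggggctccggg
PGK1: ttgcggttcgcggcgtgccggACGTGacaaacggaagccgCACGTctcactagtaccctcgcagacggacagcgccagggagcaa
The BNIP3 stretch holds the core on both strands as an E-box, and the PGK1 stretch holds it at 2 separate places.

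Genes of cholesterol synthesis and uptake were lower in the late courses. Of 22 measured members 10 were apart lower and 0 higher, with medians of -0.96 and -1.23. HMGCS1, which makes HMG-CoA at the start of the mevalonate pathway, stood at 89.7, 26.4 and 23.3 CPM in courses 1, 3 and 5, with log2 ratios of -1.76 (-1.85 to -1.67) and -1.95 (-2.05 to -1.85). INSIG1, which holds SREBP in the endoplasmic reticulum, stood at 148, 50.2 and 35.2 CPM. The sterol carrier gene STARD4 stood at 159, 59.8 and 41.0 CPM. MSMO1, IDI1, MVD and MVK were apart lower as well. SREBF2, which encodes SREBP2, stood at 404, 307 and 275 CPM. PMVK was the single member higher in both late libraries, at 21.8, 32.0 and 38.4 CPM. A sterol response element, searched as TCACNCCAC on both strands with no overlap with the motifs above, was present in 1 of 16 promoters of the list, in 0 of the 8 of members apart and in 1.03% of promoters of all genes at 5 CPM or more. Among all genes apart lower 7 of 326 held it (2.15%), and among genes apart higher 2 of 317 did (0.631%).

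Fatty acid genes were closer to their course 1 levels. Of 13 measured members 1 was apart lower and 0 higher, with medians of 0.17 and 0.34. That member was the desaturase gene FADS2, at 31.5, 12.4 and 6.29 CPM. FASN stood at 228, 284 and 321 CPM and SCD at 362, 306 and 308 CPM. Of 11 measured lipid droplet genes 2 were apart higher and 2 lower, with medians of -0.34 and -0.43. The coat protein gene PLIN2 stood at 156, 34.0 and 31.8 CPM, and HILPDA, an inhibitor of the lipase ATGL, stood at 82.8, 25.2 and 24.6 CPM. G0S2, another inhibitor of ATGL, was on the other side at 0.615, 10.2 and 17.0 CPM, as was its activator ABHD5 at 4.87, 9.93 and 11.2 CPM. The lipase gene itself, PNPLA2, stood at 196, 104 and 79.7 CPM.

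Ribosome biogenesis genes were higher by a smaller amount. All 25 measured members were above course 1 in both late libraries, beside 5179 of all 10653 genes. Of the 25, 4 were apart higher and 0 lower, and the medians were 0.73 and 0.92. With library size taken as the total gene count, 7 were apart higher. The 4 were NIP7 (16.3, 44.2 and 51.9 CPM), NOLC1 (77.1, 187 and 227 CPM), DDX21 (113, 270 and 364 CPM) and RRP12 (34.0, 81.4 and 99.6 CPM). Of 48 measured cytosolic ribosomal protein genes 0 were apart in either direction, with medians of 0.14 and 0.40 and, as an example, RPL8 at 4903, 5462 and 6707 CPM. MYC, which drives ribosome production, stood at 580, 936 and 1114 CPM, and of 22 measured MYC and G1 regulators 0 were apart, with medians of 0.18 and 0.22.

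Few cell-cycle genes were apart, beside 3.86% higher and 4.23% lower over all genes. Of 34 measured DNA replication genes 1 was apart higher, the helicase subunit gene MCM6 at 62.5, 133 and 157 CPM, with medians of 0.32 and 0.21. With the trend over GC content and transcript length taken out, 0 of the list were apart. Of 31 measured mitotic genes 0 were apart, and 26 were below course 1 in both late libraries, beside 4404 of all 10653 genes. The medians of the mitotic genes were -0.28 and -0.46. MKI67 stood at 173, 146 and 124 CPM and TOP2A at 274, 249 and 248 CPM. Of 21 measured p53 targets 2 were apart higher and 1 lower, with medians of -0.07 and 0.32. These were the exonuclease gene AEN (12.1, 34.6 and 58.3 CPM), the RNA-binding protein gene ZMAT3 (18.0, 39.7 and 65.4 CPM) and, lower, the damage recognition gene DDB2 (122, 58.3 and 51.9 CPM). CDKN1A, which encodes p21, stood at 116, 147 and 247 CPM, so that course 5 alone was 2-fold above course 1.

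Genes of mitochondrial respiration did not meet the rule, which 8.09% of all genes met. Of 13 proteins encoded in mitochondrial DNA 0 were apart, and the median was 0.24 in course 3 and -0.53 in course 5, so the late libraries lay on opposite sides of course 1. MT-CO1 stood at 26470, 28630 and 16470 CPM in courses 1, 3 and 5. Reads aligned to several places, which can include mitochondrial reads, also differed in course 5, and their part in this difference was not tested. Of 36 nuclear respiratory chain genes 0 were apart, with medians of 0.03 and 0.13. Of 25 measured NRF2 and glutathione genes 1 was apart higher, SLC7A11, with medians of 0.09 and 0.23, and of 10 measured iron genes 1 was apart higher, the ferrireductase gene STEAP3 at 9.17, 21.3 and 27.8 CPM, with medians of -0.07 and -0.01.

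Inflammatory and NF-kB target genes were mostly lower where they were measured, with 13 of the 23 listed below 5 CPM. Of the 10 measured, 8 were below course 1 in both late libraries, beside 4404 of all 10653 genes. Among the 10, 3 were apart lower and 0 higher, with medians of -0.77 and -1.24. The adhesion molecule gene ICAM1 stood at 42.9, 13.3 and 10.5 CPM, the NF-kB subunit gene NFKB2 at 84.4, 35.1 and 24.4 CPM and TNFAIP2 at 132, 54.8 and 31.9 CPM. NFKB1 was on the other side at 23.4, 36.6 and 45.2 CPM, and NFKBIA stood at 27.2, 21.0 and 21.1 CPM. Of 8 measured interferon-stimulated genes 2 were apart lower, with medians of -0.11 and -0.10. They were STAT2 and IRF9, which act together in the interferon-activated complex, with STAT2 at 312, 150 and 125 CPM and IRF9 at 13.5, 4.78 and 3.32 CPM.

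The share of myeloid identity genes apart lower was 5.26% in transcription factors, 16.7% in monocyte genes and 11.1% in neutrophil granule genes. Over all genes it was 4.23%, and the shares of these lists rest on 1 or 2 genes each. Of 19 measured myeloid transcription factors 1 was apart lower, the repressor gene BCL6 at 7.95, 3.90 and 3.25 CPM, with medians of 0.05 and 0.08, and CEBPA stood at 607, 627 and 733 CPM. BCL6 was just past the 2-fold limit in course 3, and 0 of the list were apart with total gene counts as library size or with the GC and length trend taken out. Of 12 measured monocyte genes 2 were apart lower and 1 higher, with medians of -0.24 in each late course. ITGAX, which encodes CD11c, stood at 475, 161 and 108 CPM, and CSF1R, the receptor of the monocyte growth factor, at 60.4, 27.1 and 21.6 CPM, while VCAN was higher. Of 9 measured neutrophil granule genes 1 was apart lower, BPI at 31.2, 13.8 and 12.1 CPM, with medians of -0.29 and -0.38. Myeloperoxidase, MPO, stood at 914, 727 and 334 CPM, so that course 5 alone was 2-fold below course 1.

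Signalling lists gave few genes, beside 3.86% higher and 4.23% lower over all genes. Of 16 measured immediate early genes 1 was apart higher, ATF3 at 1.69, 7.96 and 9.60 CPM, with medians of -0.09 and -0.25, and FOS stood at 358, 450 and 255 CPM. Of 11 measured ERK feedback genes 1 was apart lower, PHLDA1 at 10.1, 4.80 and 2.84 CPM, with medians of -0.04 and 0.09. Of 12 measured STAT5 targets BCL6 was the 1 apart lower, with medians of -0.01 and -0.29, and 0 were apart under the same 2 alternatives. The share of members apart in these lists rests on 1 gene each.

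Markers of other cell types were at or near 0 for the most part. The summed level of 8 B cell markers was 3.48, 0.529 and 0.567 CPM in courses 1, 3 and 5, with 2 at 0 in all 3 libraries, and that of 8 fibroblast markers was 4.03, 1.94 and 1.90 CPM, with 3 at 0. Of 12 erythroid markers 7 were at 0, the globin genes had at most 1 count each, and the sum of 60.1, 33.5 and 30.0 CPM was nearly all the erythropoietin receptor gene EPOR. Of 9 T cell markers 4 were at 0 and the sum of 70.6, 80.3 and 60.7 CPM was nearly all TRAC. The 8 mast cell and basophil markers summed to 54.9, 114 and 100 CPM, with 2 at 0. This came from the tryptase genes TPSB2 (49.2, 99.3 and 88.3 CPM) and TPSAB1 (4.64, 13.3 and 11.1 CPM), which are near-identical copies and uncertain as single genes. The 9 epithelial markers summed to 32.1, 24.4 and 20.3 CPM, with 4 at 0 and KRT18 apart lower at 11.5, 5.58 and 4.32 CPM.

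The genes apart lower differed from the others in base composition. Their median transcript GC content was 56.9%, beside 47.1% in the genes apart higher and 47.8% over all genes. The genes were split by GC content into 5 groups of equal size. In the group with the lowest GC (median 38.3%) 1.31% were apart lower, and in the group with the highest (61.1%) 9.95% were. The share apart higher was 3.89% and 2.82% in the same groups. The median log2 ratio of the highest group was -0.17 in course 3 and -0.23 in course 5. Transcript length gave no such order, with 4.36% apart lower in the group of the shortest and 2.30% in the group of the longest transcripts. With the trend over GC and length taken out, an alternative added after the data were seen, 428 genes were apart higher and 383 lower. The part of GC in single genes was not tested. Under that alternative glycolysis had 10 genes apart lower with medians of -0.97 and -0.79, and hypoxia targets 16 with -1.12 and -1.29. Cholesterol genes had 8 apart lower with -0.92 and -1.15, of which 7 were also apart lower with the trend left in. The synthetases had 11 apart higher with 1.13 and 1.57, and the serine list had 9. The 1 call in each of the DNA replication, myeloid transcription factor and STAT5 lists was lost. Monocyte genes had 1 apart lower in place of 2, and lipid droplet genes 1 apart higher in place of 2, with medians of -0.141 and -0.155. The median of p53 targets in course 3 was on the other side of 0, at 0.095.

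**Figure D4:**
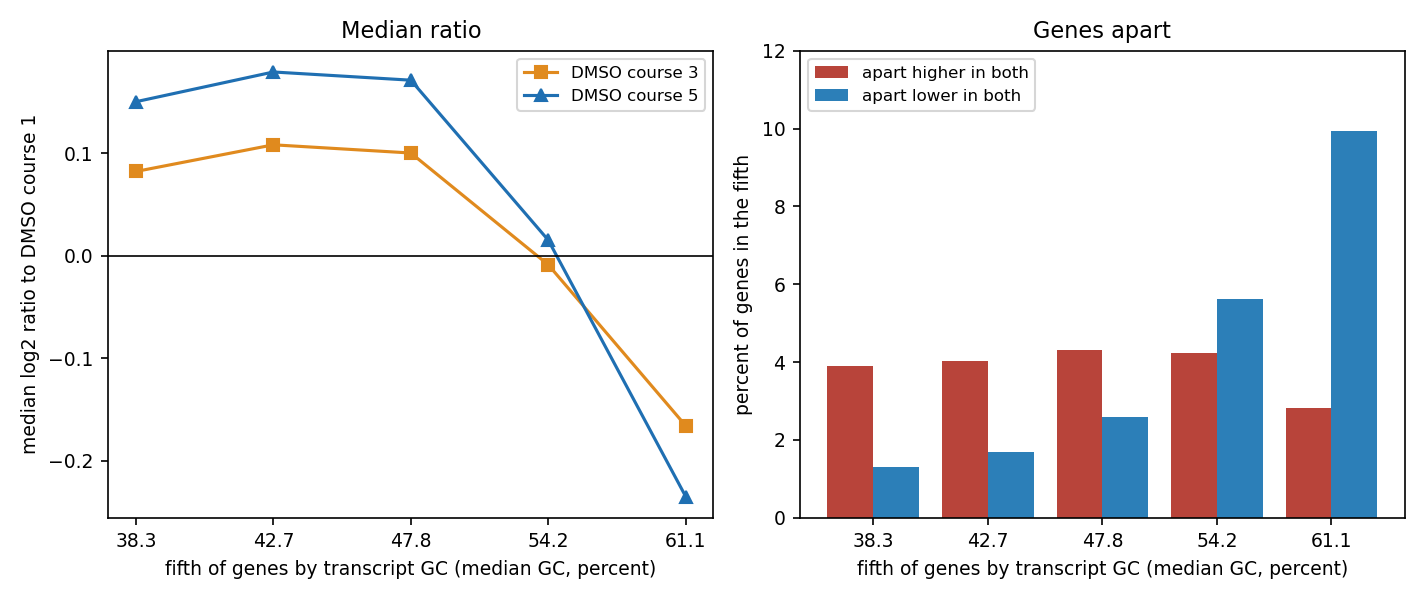
Genes of 5 CPM or more in 5 equal groups by transcript GC content, labelled with the median GC of each group. The left panel gives the median log2 ratio to DMSO course 1 in courses 3 and 5, and the right panel the percent of genes apart higher and apart lower in both, where the lower share runs from 1.31% to 9.95%.

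Position on a chromosome was not used by the rule. The autosomes other than chromosome 19 had median log2 ratios between -0.04 and 0.21. Chromosome 19 had the lowest median of the autosomes, at -0.15 in course 3 and -0.20 in course 5 over 827 genes with a median GC of 58.6%, and 8.10% of its genes were apart lower. With the trend taken out these medians were -0.06 and -0.04 and the share was 5.93%. On chromosome 17, 6.45% were apart lower, and 5.35% with the trend taken out. The X chromosome had 0.85% of its 353 genes apart higher, 3 genes in all.

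With both late libraries taken as 1 group, edgeR's quasi-likelihood test (p-values adjusted by Benjamini and Hochberg) called 1910 genes higher (17.9% of the genes tested) and 1766 lower (16.6%) in the late courses. The smallest adjusted p was that of CHAC1. The smallest adjusted p of this test changed by many orders of magnitude with the scaling and the filter, so its size carries little weight. The test has 1 residual degree of freedom, which comes from the difference between courses 3 and 5. The labels do not call these libraries replicates, and course 1 is assumed to vary like them, and the p-values therefore reflect no spread other than that of these libraries. All 862 genes apart were among those called, as the same counts define both. By this test 19 of 22 amino acid transport and synthesis genes and 21 of 25 ribosome biogenesis genes were called higher and 0 lower. Of 30 hypoxia targets 24 were called lower and 1 higher, of 25 glycolytic genes 18 lower and 3 higher, and of 22 cholesterol genes 16 lower and 1 higher. Of 31 mitotic genes 12 were called lower and 0 higher. GAPDH (adjusted p = 0.176) and ATF4 (adjusted p = 0.144) were not called by edgeR.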

How the data were processed

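Bulk RNA of MOLM-13 cells was made into libraries by TruSeq chemistry, per the labels' protocols. The authors deposited unnormalised read counts for each Ensembl gene, made with TopHat2 2.0.11 and HTSeq 0.6p1 and checked with FastQC 0.11.5, per the submitters' processing notes. The notes name hg19, but all 58735 gene IDs are those of GENCODE release 29, an annotation of GRCh38. The build is thus uncertain, and gene positions are given only by chromosome. Promoter sequences are RefSeq's (GRCh38.p14), with the first start listed for each gene. HTSeq's summary rows, 24.6% to 29.8% of the reads, stayed out of library sizes and tests. Reads aligned to several places are in no gene, which leaves genes with close copies undercounted.

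Counts were scaled to CPM by TMM in R 4.3.3 with edgeR 4.0.16. Ratios to course 1 have exact binomial (Clopper-Pearson) 95% intervals, and 3 counts stood in for a count of 0. The 3 libraries differed from each other far beyond counting noise, so none is a repeat sequencing of another. The late courses together were also tested against course 1 with edgeR's quasi-likelihood test, with DESeq2 1.42.0 and limma 3.58.1 as alternatives. The functions were tested on simulated data. Named genes are the 12 in each direction whose smaller ratio is largest, leaving out clone names, small RNAs, pseudogenes and Y-linked or unplaced genes, which removed 19 higher and 30 lower genes. From each list up to 4 genes apart and the 2 of highest level were named, with further members named for their role. The members, lists and tests were chosen with earlier results of these data known, so the lists were given no test. The 3 busulfan samples and the first parental sample were not used here, and some genes that the lists hold are not reported here.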

Additional observations from a re-analysis of the deposited data

Results flagged for a closer look

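In data outside the gene counts, reads aligned to several places made up 21.33% of all reads in DMSO course 5, above the 15.39% in course 1, the library used as the control. Course 3 stood at 14.24%. No gene receives these reads, and their part in the differences between course 5 and course 1 was not tested. The mitochondrial share of gene counts, 9.22% in course 5 against 14.36% in course 1, differed in the same library.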

How the results depend on the processing

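No paired analysis was possible because each course has 1 library. The counts of genes apart (411 higher and 451 lower) followed the limits set: they were 651 and 735 at a mean of 1 CPM or more, 229 and 259 at 20 CPM or more, and 985 and 1375 with no filter. At 1.5-fold they were 1350 and 1229, and at 4-fold 49 and 64. With 1 late library left out, the counts ranged from 432 to 803 higher and from 480 to 899 lower, the larger ones from course 5 alone, since only 1 library then has to meet the rule. Total gene counts and DESeq2's size factors kept both counts within 1.5 times, and moved all log2 ratios by 0.03 and 0.05 or by -0.02 and -0.02 in courses 3 and 5. Under the alternatives 132 list medians, 72 chromosome medians, 258 values of named genes and 6 motif shares were recomputed. They kept their direction where it was called, or moved by less than the spread between the late libraries or the counting interval. That spread was 0.296 on the log2 scale, more than the shifts from total gene counts and DESeq2's size factors. The named genes were recomputed under those scalings only, so their values could not have failed. List and chromosome medians under those scalings were nearly fixed in advance as well. The alternative tests called 1292 higher and 1511 lower (DESeq2's Wald test) and 1937 and 1827 (limma-voom), and with filterByExpr edgeR called 2159 and 2308 of 17941 genes. With a late library left out the test has no residual degrees of freedom and was not run. With 1 library for each course, depth limits mainly genes with few counts, such as SLC6A9 with 1 count in course 1.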

Other observations

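Some gene groups with members apart are outside the lists above, and 4 of them were put together after the values were seen, so they are described only. Metallothioneins, small proteins that bind zinc and copper, were lower in the late courses with the zinc exporter SLC30A1. Of 11 genes in that group 7 were at 5 CPM or more and 6 were apart lower, with median log2 ratios of -2.08 in course 3 and -2.39 in course 5, and the group summed to 1020, 269 and 210 CPM in courses 1, 3 and 5. MT2A stood at 350, 83.1 and 66.9 CPM, MT1E at 168, 30.5 and 15.7 CPM and SLC30A1 at 161, 59.9 and 60.1 CPM. The metallothionein genes are close copies of each other, so their reads may be split among them. Among genes of the NADPH oxidases, NOXA1 was apart lower at 55.9, 25.3 and 11.2 CPM. NCF1, also apart lower, stood at 79.1, 17.2 and 14.3 CPM and has near-identical copies. The catalytic subunit gene CYBB stood at 13.8, 8.11 and 7.70 CPM and was not apart.

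Of 10 measured polyamine genes 2 were apart higher, 2 lower and 6 neither, with medians of -0.02 and 0.05. The synthesis genes ODC1 and SRM were apart higher, ODC1 at 35.0, 93.8 and 135 CPM and SRM at 36.6, 83.7 and 116 CPM. The acetyltransferase genes SAT1 (270, 104 and 81.5 CPM) and SAT2 (49.3, 14.3 and 11.02 CPM) were apart lower. Of 14 genes of purine and pyrimidine synthesis 4 were apart higher and 0 lower, with medians of 0.64 and 0.71. They were CTPS1 (23.9, 71.8 and 87.6 CPM), CAD (70.0, 182 and 222 CPM), DHODH (11.8, 28.5 and 28.7 CPM) and GART (59.8, 121 and 145 CPM).

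The parental library, which the comparison leaves out, was looked up in the 24 genes named as farthest from course 1. It stood between course 1 and both late courses in 22 of them, and outside that range in LSP1 and VCAN. These genes were chosen for a wide gap between course 1 and both late libraries, and that choice favours a place inside the gap. The share over all genes was not computed, so the count does not place the parental library. ULBP1 was at 4.60 CPM in the parental library, DACT3 at 18.6 CPM, ALDOC at 133 CPM and PFKFB4 at 101 CPM, each between course 1 and the late libraries. NDRG1, which is not among the 24, was at 1199 CPM, also between them. LSP1, at 114 CPM, was above course 1, and VCAN, at 3.97 CPM, was below it.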
